A study of Mus musculus with 2 samples.

Results

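The effector-rule cells described here are spleen T cells in which at least 2 of the 6 transcripts Gzma, Ccl4, Ccl3, Cxcr6, Fasl and Fgl2 had a unique molecular identifier (UMI, a tag that marks 1 captured messenger RNA). They numbered 223 of the 10338 cells that had at least 200 genes and under 20% mitochondrial UMIs, which is 2.16% (1.89% to 2.46%). They were set against the 9356 cells with none of the 6 transcripts. A further 759 cells with 1 of the 6 stood between. All of these cells belong to 1 single-cell RNA library and have no treated or untreated counterpart. They are GD2TIF cells, which are Cas9 transgenic mouse T cells given a retrovirus against Bcor and Zc3h12a that also carries 14g2a, a chimeric antigen receptor for the ganglioside GD2. Each immunocompetent C57BL/6 mouse received 1000000 cells, and 2 months later 1000000 CD8+Thy1.1+ cells were sorted from spleen. Effector-rule cells and cells with none therefore share the Cas9 transgenic genotype, the retrovirus given, the tissue and the time. Whether each cell carries the edits was not tested. How many mice were pooled is not stated in the labels, and 1 T cell receptor (TCR) library from the same sort gave the clonal families.

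Effector CD8 T cells kill target cells by releasing granules that hold perforin and granzymes and by showing Fas ligand, and they call in other immune cells with chemokines. Memory and stem-like CD8 T cells keep these genes low and carry the transcription factors Tcf7 and Klf2, of which Klf2 keeps T cells in the circulation. Chronically stimulated CD8 T cells carry inhibitory receptors such as PD-1 beside their effector genes. Of the 6 rule genes, Gzma encodes a granule protease, Ccl3 and Ccl4 encode inflammatory chemokines, and Cxcr6 encodes a chemokine receptor of T cells in tissues. Fasl encodes the death ligand of Fas, and Fgl2 a fibrinogen-like protein with a secreted, immune-suppressing form.

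The TCR library was not used to choose the cells, so the clonal families give a view of them that the rule did not set. A TRB family here means the cells with exactly 1 productive TRB chain (the TCR beta chain) that share its CDR3, the loop that the V, D and J segments form where they join. The TRB genes lie on mouse chromosome 6. The CDR3 nucleotide sequences below are those of the families that hold most effector-rule cells and of the second largest family, which holds almost none. Capitals mark the bases between the start shared with most CDR3s of the same V gene and the end shared with most CDR3s of the same J gene, so they cover the stretch with the D segment and the joins, which differs between rearrangements.
TRBV15 with TRBJ1-1, the largest family, 11 effector-rule cells of 882: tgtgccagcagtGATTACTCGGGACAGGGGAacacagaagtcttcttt
TRBV29 with TRBJ1-1, 11 of 192: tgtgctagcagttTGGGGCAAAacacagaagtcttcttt
TRBV17 with TRBJ1-1, 8 of 200: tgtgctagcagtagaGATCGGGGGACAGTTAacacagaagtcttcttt
TRBV5 with TRBJ2-5, 8 of 9: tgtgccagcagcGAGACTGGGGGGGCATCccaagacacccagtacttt
TRBV12-1 with TRBJ2-5, 4 of 16: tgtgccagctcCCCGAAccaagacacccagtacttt
TRBV12-2 or TRBV13-2 with TRBJ2-5, 4 of 91: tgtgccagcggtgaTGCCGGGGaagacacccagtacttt
TRBV12-2 or TRBV13-2 with TRBJ2-3, the second largest family, 2 of 600: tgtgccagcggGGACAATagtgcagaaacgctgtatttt
These junctions differ from one another in length and bases, so the effector-rule cells carried several separate TRB rearrangements. Where 2 V genes are named, the deposited annotation gives both.

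The cells were selected on UMIs of the 6 rule genes, and the levels of those genes are therefore a description. Cxcr6 was the most common and was present in 181 effector-rule cells (81.2%). Ccl4 was present in 117 (52.5%), Ccl3 in 101 (45.3%), Fasl in 96 (43.0%), Fgl2 in 60 (26.9%) and Gzma in 40 (17.9%). Gzma, which gives the population its working name, was thus the rarest of the 6. A cell's Gzma could still be high, since 1 cell held 37 UMIs, which is 15.6% of all Gzma UMIs in the population. The most frequent combination was Cxcr6 with Fasl in 35 cells, followed by Ccl4 with Cxcr6 in 26 and by Ccl4, Ccl3 and Cxcr6 together in 21. Of the 223 cells, 126 carried 2 of the 6 genes, 53 carried 3 and 44 carried more, of which 8 carried 5, and no cell carried all 6. Effector-rule cells had 942 counts per 1000000 UMIs (CPM) of Cxcr6, 827 CPM of Ccl4, 497 CPM of Ccl3, 415 CPM of Gzma, 233 CPM of Fasl and 158 CPM of Fgl2. Just outside the rule, the 759 cells with 1 gene had 287 CPM of Cxcr6, 88.9 CPM of Ccl4, 63.0 CPM of Ccl3, 33.3 CPM of Gzma, 105 CPM of Fasl and 13.2 CPM of Fgl2.

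Each rule gene was also measured in cells chosen by the other 5, although the 6 genes had been picked together from these same cells. Gzma stood at 356 CPM in the 211 cells with at least 2 of the other 5 genes and at 3.17 CPM in cells with none of them, a ratio of 112 (84.1 to 152). The ratio was 90.2 for Fgl2, 87.4 for Ccl4, 79.7 for Ccl3, 33.3 for Cxcr6 and 16.5 (12.4 to 21.7) for Fasl. Each of the 6 transcripts was far more abundant in cells chosen by the others. Because the genes were picked together, this describes the list and is no independent test that they go together. Ratios of summed counts carry exact conditional 95% intervals, sums carry exact Poisson intervals and shares carry exact Clopper-Pearson intervals. All of these cover counting error only. Cells are not replicates, each library stands alone, and no test between conditions or p-value is given.

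Depth and free RNA touch a rule that rests on single UMIs. Effector-rule cells had a median of 2182 UMIs and 1098 genes, and cells with none had 1898 UMIs and 968 genes. Mitochondrial transcripts took a median of 2.72% of UMIs in effector-rule cells and 3.56% in cells with none, and ribosomal protein transcripts took 14.3% and 18.2%. After every cell had been thinned to 1000 UMIs, 118 of 9456 cells (1.25%) still met the rule. Thinning only removes UMIs, so all of these had to be among the 214 effector-rule cells deep enough to be thinned. In 201 cells with at least 3 B cell markers (median 2792 UMIs), Cxcr6 had a UMI in 4.98%, against 5.03% of all cells (median 1922 UMIs). Fgl2 had a UMI in 0.995% of them, against 0.813% of all cells, and Fasl in 1.99%, against 2.52%. Cxcr6 and Fgl2 were thus detected about as often in these cells as in all cells, and Fasl nearly so, where Fgl2 rests on 2 of the 201 cells. Whether a single UMI of these 3 genes shows expression in a cell cannot be told from this. Cxcr6 with Fasl, the most frequent combination, joins 2 such genes. In the same 201 cells Gzma had no UMI, and 2 cells (0.995%, 0.121% to 3.55%) met the rule. These cells are no clean background, since Cd3e was present in 68.4% of the 196 of them that could be thinned to 1000 UMIs. The share in thinned cells with none of the rule genes was 71.2%.

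The label was checked against markers of CD8 T cells and of other cell types. T cell genes were high in effector-rule cells, with 2406 CPM of Cd3e against 1433 CPM in cells with none, and 494 CPM of Cd8b1 against 401 CPM. Of 8 effector markers that could be compared, 6 were past 2-fold higher in effector-rule cells (Gzmb, Prf1, Nkg7, Ccl5, Cx3cr1 and Gzmk), against 3.2% of all 8097 genes compared. The 10 markers of this list summed to 19223 CPM in effector-rule cells and 3599 CPM in cells with none. The effector transcription factor genes Tbx21 and Zeb2 were not, at 0.891-fold (0.659 to 1.18) and 0.826-fold (0.537 to 1.22). The terminal effector marker Klrg1 had 3 UMIs in all effector-rule cells, and S1pr5 had none, which allows up to 5.25 CPM. Of 6 markers of exhausted CD8 T cells that could be compared, 5 were also past 2-fold higher (Pdcd1, Lag3, Tigit, Cd160 and Nr4a2), and this list summed to 3483 CPM in effector-rule cells and 1467 CPM in cells with none. The cells thus carried effector and exhaustion transcripts together and are called here by their rule.

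Markers of other cell types were few. Lyz2, Csf1r, Cd14, Vcan and the 3 C1q genes were at 0 among 12 monocyte and macrophage markers, whose sum was 238 CPM in effector-rule cells and 146 CPM in cells with none. B cell markers summed to 515 CPM in effector-rule cells and 719.7 CPM in cells with none, and 1 of 10, Pax5, was at 0 in effector-rule cells. The sum of 7 natural killer (NK) cell markers was 54.3 CPM in effector-rule cells and 2.02 CPM in cells with none, and Gzmc was at 0 in both. At least 3 NK markers occurred in 1 effector-rule cell, which held all UMIs of Klrb1c and Ncr1. Another single cell gave nearly all UMIs of Cd74, and 6 dendritic cell markers summed to 355 CPM in effector-rule cells and 106 CPM in cells with none, with Zbtb46 at 0 in effector-rule cells. Markers of gamma delta and innate-like T cells summed to 40.3 CPM in effector-rule cells and 4.94 CPM in cells with none, with Zbtb16 at 0 in effector-rule cells. Cd4 and Foxp3 had no UMI in effector-rule cells. Of effector-rule cells 27 (12.1%) carried at least 2 markers of B, NK, monocyte or macrophage, dendritic, erythroid, platelet or stromal cells, against 1473 cells with none (15.7%). Without these cells 246 genes were past 2-fold higher, against 259 with them. That count left out other lists. At least 2 gamma delta or innate-like markers were present in 2 effector-rule cells (0.897%) and 4 cells with none (0.0428%). Dividing cells were rare: after thinning to 1000 UMIs, at least 2 cycling markers were present in 3 of 214 effector-rule cells (1.40%, 0.290% to 4.04%) and in 6 of 8530 cells with none (0.0703%).

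Among 8097 genes with at least 200 UMIs over both groups, 259 (3.2%) were past 2-fold higher in effector-rule cells and 495 (6.11%) were past 2-fold lower. The interval lay wholly past 2-fold for 72 of the higher genes and for 57 of the lower ones. The median gene had a fold of 1.00. Ccl5, a chemokine of effector and memory CD8 T cells, had the largest fold, with 11384.5 CPM in effector-rule cells, 2651 CPM in cells with 1 rule gene and 609 CPM in cells with none, or 18.7-fold (18.1 to 19.3). Next came Lat2, an adaptor of immune receptor signalling, at 12.1-fold, the granzyme gene Gzmb at 11.4-fold and Ccrl2, an atypical receptor that binds chemerin, at 10.7-fold. Id2, a transcriptional regulator that effector CD8 T cells need, had 911 CPM in effector-rule cells and 95.8 CPM in cells with none, or 9.50-fold (8.61 to 10.5).

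The other 15 genes with the largest folds were not classical killer genes. The septin gene Sept4 was 9.30-fold higher, Mrc2, which encodes a collagen-binding receptor, 7.78-fold, and the unnamed transcript 2900026A02Rik 6.94-fold. Chn2, a regulator of the GTPase Rac, was 6.72-fold higher, Coch, which encodes the extracellular protein cochlin, 6.68-fold and Susd3 6.47-fold. Between 5.15-fold and 5.91-fold lay Glrx (a glutaredoxin), Enpp2 (autotaxin, which makes lysophosphatidic acid), Car2 (a carbonic anhydrase), Hip1 (an endocytic protein), Tmem154, Gsto1 (a glutathione transferase), Sytl2 (a granule-docking protein), the inhibitory receptor gene Cd200r1 and its close relative Cd200r4. Within the largest TRB family alone, the 11 effector-rule cells held 30457 UMIs, so few of these genes could be read. Ccl5 was 11.5-fold (9.98 to 13.1), Gzmb 15.6-fold (5.16 to 39.6) and Id2 3.15-fold (1.87 to 5.00) higher there. Chn2 and Lat2 rested on 1 UMI each, at 0.656-fold (0.0164 to 3.75) and 1.27-fold (0.0314 to 7.43), and Susd3, Enpp2 and Gsto1 had no UMI in those cells, so no direction is read for these 5 genes. AW112010, a transcript of activated lymphocytes, lay just below these 20 genes and was picked after its values were seen. It had 1900.0 CPM in effector-rule cells and 374 CPM in cells with none, or 5.08-fold (4.76 to 5.42).

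**Figure D1:**
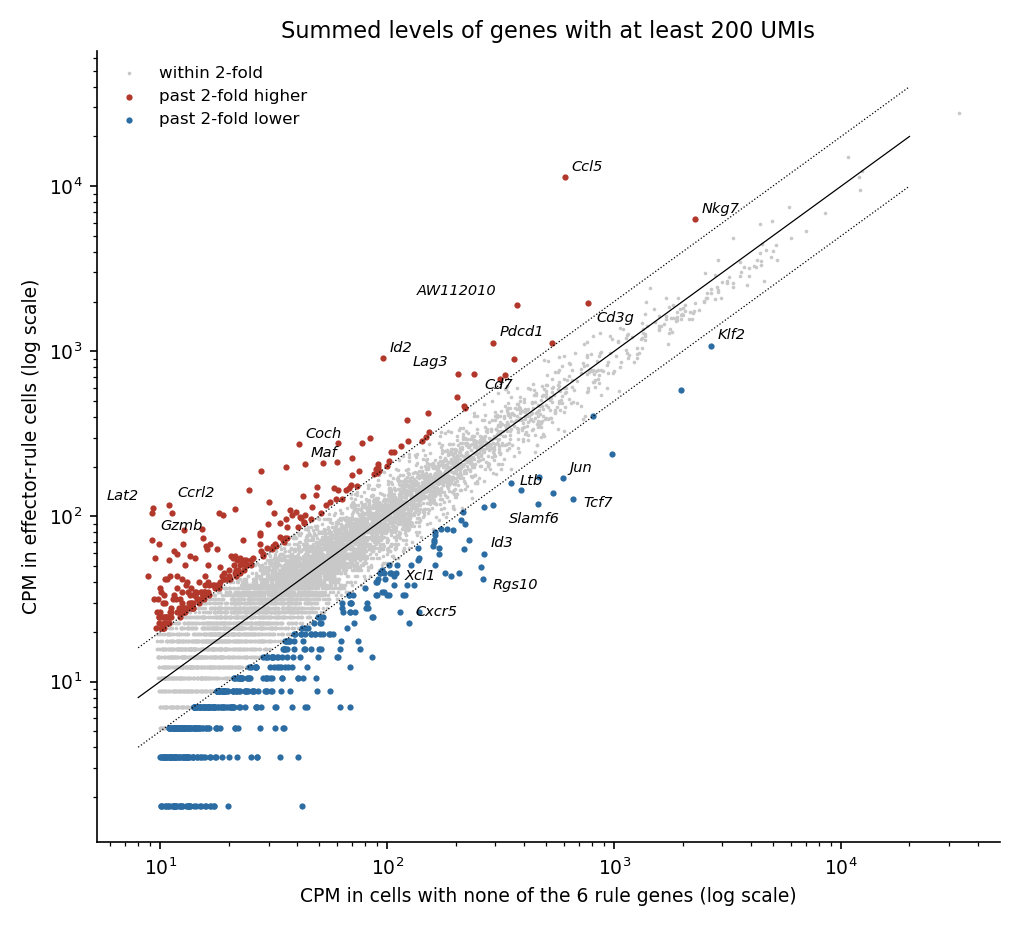
Level of each gene with at least 200 UMIs in effector-rule cells (vertical axis, CPM, log scale) against cells with none of the 6 rule genes (horizontal axis, CPM, log scale), 1 point per gene, with a solid line of equality and dotted lines at 2-fold. Genes without a UMI in effector-rule cells are not drawn. Ccl5 and Id2 stand farthest above the line among well-measured genes, and Tcf7, Id3 and Rgs10 stand well below it.

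The genes with the lowest folds rested on few molecules, because 1 UMI over all effector-rule cells equals 1.75 CPM. Of the 495 lower genes, 182 had at most 3 UMIs in effector-rule cells and 6 had none. Camsap2, a microtubule-binding protein gene, had 0 UMIs in effector-rule cells against 19.5 CPM in cells with none, which allows up to 0.270-fold. Krt222, Hist1h4h, Polrmt and Osbpl6 also had 0 UMIs in effector-rule cells, and the bound for them lay between 0.340-fold and 0.400-fold. Mfhas1, Cxxc4, Lrp6, Ndrg1, Tln2, Ces2c and Hspb1 had 1 to 4 UMIs in effector-rule cells and folds of 0.0862 to 0.104. Ranked instead by the upper end of the interval, a choice made after the values were seen, the lower genes were led by Rgs10, a brake on G protein signalling. It had 42.0 CPM in effector-rule cells and 263 CPM in cells with none, or 0.160-fold (0.102 to 0.238). Tcf7 followed at 128 CPM in effector-rule cells and 661 CPM in cells with none, or 0.193-fold (0.152 to 0.243). The same ranking held the follicular chemokine receptor gene Cxcr5 (0.182-fold), Id3 (0.223-fold), Ltb (0.258-fold), the secreted antagonist gene Sostdc1 (0.189-fold), Nsg2 (0.220-fold), Aff3 (0.164-fold) and the transcript AC140209.1 (0.191-fold).

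Genes of killing were more often higher than lower, and those of secretion were split. Of 14 granule and cytotoxic genes compared, 6 were past 2-fold higher and 1 was past 2-fold lower, with a median fold of 1.48. Nkg7, a protein of cytotoxic granules, had 6303 CPM in effector-rule cells and 2272 CPM in cells with none (2.77-fold, 2.68 to 2.87), and perforin, Prf1, had 525 CPM and 204 CPM in the same order (2.58-fold). Gzmk was 2.17-fold higher, the death ligand gene Tnfsf10 3.57-fold and the granzyme inhibitor gene Serpinb9 2.12-fold. The lysosomal membrane gene Lamp1 was the 1 lower gene at 0.312-fold, and Srgn, the proteoglycan core of granules, was near equal at 0.928-fold. Of 9 chemokine and cytokine genes, Ccl5 and Ifng (2.03-fold, 1.66 to 2.45) were past 2-fold higher, Xcl1 and Ltb were past 2-fold lower, 4 had a fold above 1, and the median fold was 0.820. Xcl1, a chemokine for cross-presenting dendritic cells, had 43.8 CPM in effector-rule cells, 320.2 CPM in cells with 1 rule gene and 191 CPM in cells with none. It therefore did not move in 1 direction with the number of rule genes.

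Inhibitory receptors had the highest median of the lists, 2.07-fold over 9 genes, of which 5 were past 2-fold higher and 1 lower. Pdcd1, which encodes PD-1, had 1128 CPM in effector-rule cells, 560.0 CPM in cells with 1 rule gene and 293 CPM in cells with none (3.84-fold, 3.54 to 4.17). Lag3 was 3.54-fold higher, Tigit 2.51-fold and Cd160 2.07-fold, and Btla was lower at 0.320-fold. Ctla4 had a fold of 1.14 (0.882 to 1.45). Havcr2, which encodes TIM-3, a receptor of late exhaustion, was below the UMI minimum with 46 UMIs in effector-rule cells and 62 in cells with none, or 80.6 CPM against 3.13 CPM. Cd244a had 91.1 CPM in effector-rule cells against 2.12 CPM, and Entpd1, which encodes CD39, had 38.5 CPM against 2.32 CPM. Only 2 NK-type receptor genes reached the UMI minimum, and they were split. Cd7 was past 2-fold higher, with 728 CPM in effector-rule cells against 240.2 CPM in cells with none, and Fcgr2b was past 2-fold lower. Klrd1, which encodes CD94, stayed below the minimum, with 137 CPM in effector-rule cells against 5.45 CPM in cells with none.

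Transcription factors did not move as a block. Of 18 effector and exhaustion factors compared, 6 were past 2-fold higher, 1 (Nfatc2, 0.483-fold) was past 2-fold lower, and the median fold was 1.26. Besides Id2, the higher ones were Maf at 4.81-fold, Prdm1, which encodes Blimp-1, at 4.75-fold, Tox2 at 3.13-fold, Irf8 at 2.09-fold and Ikzf2 at 2.05-fold. Tox, the factor of chronic stimulation, had 604 CPM in effector-rule cells and 654 CPM in cells with none (0.923-fold, 0.827 to 1.03), and Eomes had a fold of 0.820 (0.694 to 0.961). Bcor, the edited corepressor gene, had a fold of 0.734 (0.574 to 0.925) and Zc3h12a, the edited Regnase-1 gene, a fold of 1.07 (0.711 to 1.54). A cut gene can still be transcribed, and these values do not check the editing.

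Memory and stemness genes had the lowest median of the lists. Of 21 genes compared, 15 were past 2-fold lower, none was past 2-fold higher, and the median fold was 0.375 against 1.00 over all genes. Klf2 had 1082 CPM in effector-rule cells and 2684 CPM in cells with none (0.403-fold, 0.372 to 0.437), and Slamf6, a receptor of stem-like cells, had 119 CPM and 459.9 CPM in the same order. Lef1 was at 0.375-fold, Il7r at 0.283-fold and Ccr7, with 7 UMIs in effector-rule cells, at 0.178-fold. The survival gene Bcl2 was near equal at 1.02-fold (0.877 to 1.18). Of 15 homing and adhesion genes, which share Ccr7 and S1pr1, among others, with that list, 6 were past 2-fold lower. Only Cx3cr1, a marker of cytotoxic T cells in blood, was past 2-fold higher (2.38-fold). The integrin genes Itgb1 and Itgb7 were at 0.417-fold and 0.383-fold, and Itgb2 was at 1.77-fold (1.58 to 1.97).

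**Figure D2:**
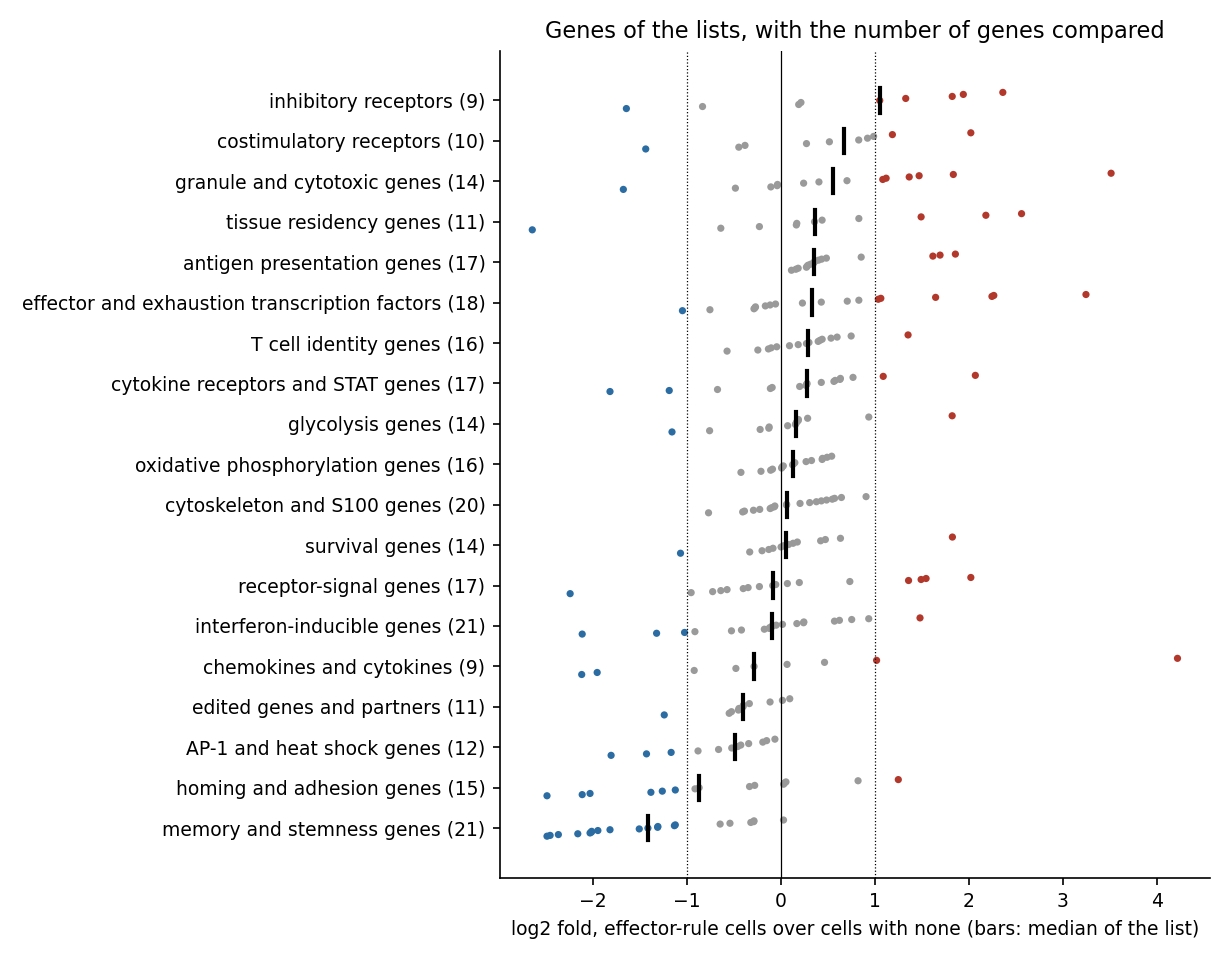
Log2 fold of effector-rule cells over cells with none (horizontal axis) for the genes of each list with at least 9 genes compared (number in brackets), 1 point per gene, red past 2-fold higher, blue past 2-fold lower, and a black bar at the list's median. Inhibitory receptors sit highest (median 1.05), and memory and stemness genes lowest (median -1.42).

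Signs of receptor stimulation were mixed. Of 17 receptor-signal genes, 4 were past 2-fold higher and 1 was past 2-fold lower, with a median fold of 0.941. The higher ones were Tnfrsf9, which encodes the costimulatory receptor 4-1BB, at 4.06-fold, the phosphatase gene Dusp5 at 2.92-fold, Nr4a2 at 2.81-fold and Bcl2a1d at 2.57-fold. Nr4a3 rested on 2 UMIs in effector-rule cells (0.211-fold, 0.0254 to 0.768), and Cd69 had a fold of 0.853 (0.700 to 1.03). Of the 12 AP-1 and heat shock genes, none had a fold above 1, and Jun (0.285-fold), Fos (0.371-fold) and Fosb (0.445-fold) were past 2-fold lower. These immediate early and heat shock genes also respond to handling of cells, and its part was not tested. Of 11 tissue residency genes, Rgs1 (4.54-fold), Nr4a2 and Glrx were past 2-fold higher and Rgs10 was past 2-fold lower, and Itga1 and Zfp683 had no UMI.

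Class I antigen presentation was slightly but evenly higher. The 14 class I pathway genes had folds between 1.08 and 1.81, led by the nonclassical gene H2-T23, with B2m at 1.28-fold and H2-K1 at 1.35-fold. The 3 class II genes Cd74, H2-Aa and H2-Ab1 were past 2-fold higher only through a single cell, which held all H2-Ab1 UMIs, 87.0% of those of H2-Aa and nearly all of those of Cd74. Interferon-inducible genes showed no such shift, with a median fold of 0.937 over 21 genes, 1 past 2-fold higher (Isg15, 2.79-fold) and 3 lower (Ly6a, Tgtp2 and Ifit3). The CD3 chain gene Cd3g was the 1 of 16 T cell identity genes past 2-fold higher, with 1963 CPM in effector-rule cells and 768 CPM in cells with none (2.56-fold, 2.40 to 2.72). The medians of the remaining lists ran from 0.756 to 1.60. No gene was past 2-fold in either direction among 16 oxidative phosphorylation genes (median 1.09) or 20 cytoskeleton and S100 genes (median 1.04). Of 14 glycolysis genes (median 1.12), Slc2a3 was higher at 3.54-fold and Slc2a1 lower at 0.448-fold, both of them glucose transporter genes. Of 14 survival genes (median 1.04), 1 was past 2-fold higher and 1, the proapoptotic gene Bbc3, past 2-fold lower at 0.477-fold. Costimulatory receptors had a median of 1.60 over 10 genes, with Cd226 (2.28-fold) and Tnfrsf9 higher and Cd28 (0.369-fold) lower. Cytokine receptor and STAT genes had a median of 1.21 over 17, with Il18r1 (4.20-fold) and Jak3 higher and Il7r and Il4ra lower. The list of edited genes and their partners had a median of 0.756 over 11, with Zc3h12d lower at 0.423-fold.

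The shift grew with the number of rule genes in a cell. Ccl5 stood at 609, 2651, 9096, 11614 and 17180.2 CPM in cells with 0, 1, 2, 3 and at least 4 rule genes. Id2 stood at 95.8, 254, 642, 1230.4 and 1265 CPM over the same steps, and Pdcd1 at 293, 560.0, 926, 1320.4 and 1448 CPM, where for both genes the last steps overlapped. Klf2 went the other way, at 2684, 2316, 1477, 660.2 and 508 CPM. Tcf7 stood at 661, 409, 145, 105 and 108 CPM, so most of its difference was present in cells with 2 rule genes. Tox varied between 566 and 654 CPM without an order. Median depth over these steps was 1898, 2142, 2236, 2245 and 2045.5 UMIs, so the cells with at least 4 rule genes were not the deepest.

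**Figure D3:**
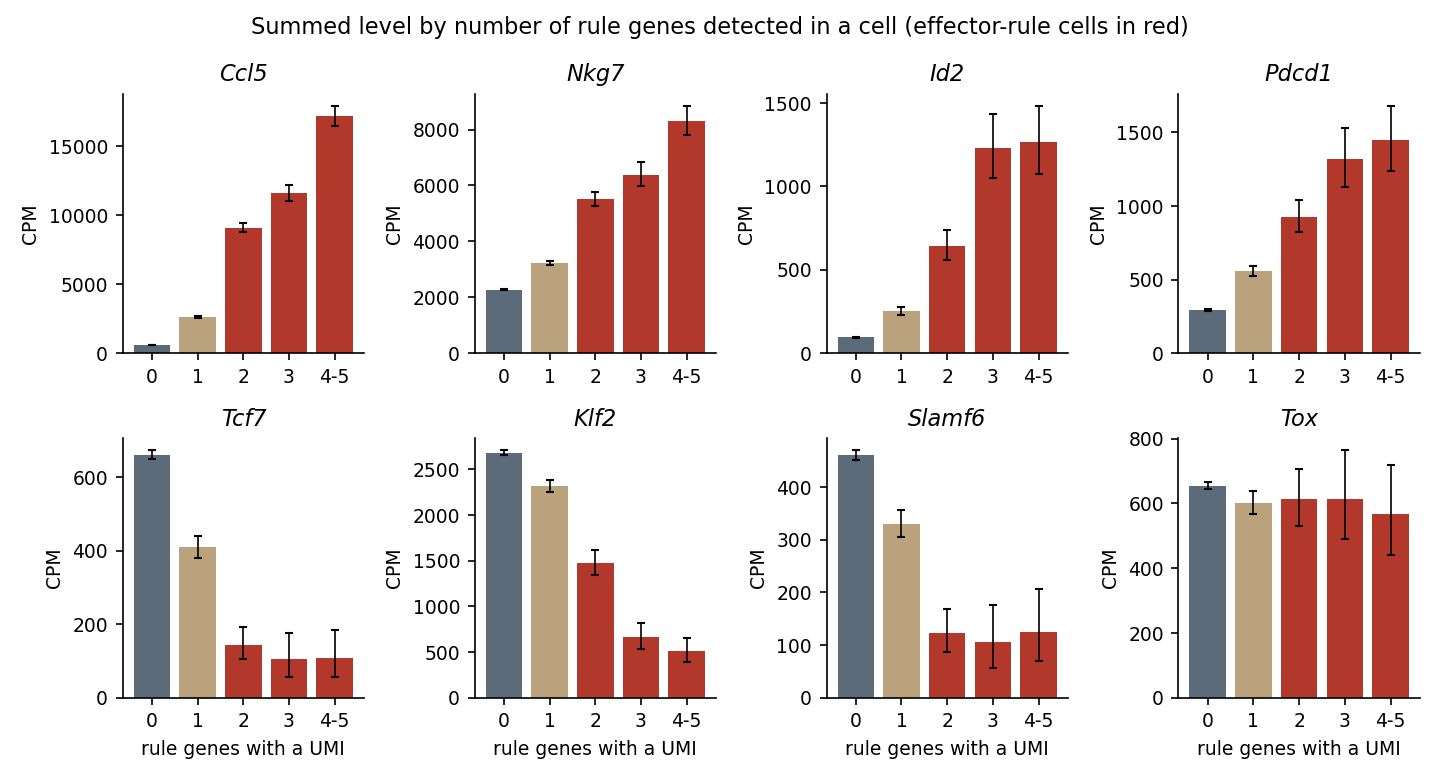
Summed level (CPM, linear axes from 0) of 8 genes in cells with 0, 1, 2, 3 and 4 or 5 rule genes, where grey is cells with none, tan is cells with 1 and red is effector-rule cells, and bars carry exact Poisson 95% intervals. Ccl5 and Nkg7 climb with each step, Id2 and Pdcd1 climb up to 3 rule genes, Tcf7, Klf2 and Slamf6 are lower in all red bars than in cells with none, and Tox stays between 566 and 654 CPM.

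At equal depth the shares of cells with a transcript showed the same order. After thinning to 1000 UMIs, Ccl5 was present in 83.2% of 214 effector-rule cells (77.5% to 87.9%) and 20.6% of 8530 cells with none, against 87.0% and 29.7% without thinning. Id2 was present in 50.9% of effector-rule cells and 7.95% of cells with none, Pdcd1 in 57.0% and 21.1%, and AW112010 in 71.5% and 26.0%. Tcf7 was present in 8.88% of effector-rule cells and 44.3% of cells with none, Slamf6 in 12.1% and 34.4%, and Klf2 in 43.0% and 86.0%. Tox was present in 46.7% (39.9% to 53.7%) and 44.6%, which overlap. In the 196 thinned cells with B cell markers, the shares were 14.8% for Ccl5, 9.69% for Id2, 29.1% for Pdcd1, 28.6% for Tcf7, 33.2% for Slamf6, 80.1% for Klf2 and 47.4% for Tox. The Ccl5, Id2 and Pdcd1 shares of effector-rule cells lie above that level. Their Tcf7, Slamf6, Klf2 and Tox shares lie at or below it, as do the Id2, Pdcd1 and Tox shares of cells with none. Cd3e was present in 68.4% of these 196 cells and in 71.2% of cells with none after thinning. The 196 cells therefore also carried T cell transcripts, and their shares cannot say how much of any share is background.

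Ccl5 marked most effector-rule cells but not all. At least 10 Ccl5 UMIs were present in 136 of them (61.0%, 54.2% to 67.4%) and in 3.05% of cells with none, and the median was 16 UMIs in effector-rule cells and 0 in cells with none. By contrast, 29 effector-rule cells had no Ccl5 UMI. The share with at least 10 UMIs was 18.4% with 1 rule gene, 51.6% with 2, 60.4% with 3 and 88.6% with 4 or 5. Tcf7 was as rare in effector-rule cells with at least 10 Ccl5 UMIs (27 of 136, 19.9%) as in those with fewer (19 of 87, 21.8%).

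The population was also uneven by rule gene. The 40 effector-rule cells with Gzma had 18962 CPM of Ccl5 and 957 CPM of Pdcd1, and the 183 without it had 9909.8 and 1161 CPM, where the Pdcd1 intervals (768 to 1177 and 1066 to 1262) overlapped. Maf stood at 96.7 CPM in those with Gzma and 230.1 CPM in those without. The 181 effector-rule cells with Cxcr6 had 1211 CPM of Pdcd1 and 966 CPM of Id2, and the 42 without it had 745 and 657 CPM. Pdcd1 was thus higher with Cxcr6, and Ccl5 was lower with Cxcr6 (10668 CPM) than without it (14682 CPM). These splits use the rule genes and are given as a description.

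The TCR library shared 4590 barcodes with the 10387 barcodes of the RNA library. A clonotype was present in 103 effector-rule cells (46.2%, 39.5% to 53.0%) and in 4142 cells with none (44.3%), so recovery of the TCR did not differ beyond counting error. A second TRB chain was present in 4 effector-rule cells (1.79%) and 210 cells with none (2.24%). Exactly 1 TRB was present in 90 effector-rule cells, which fell into 42 families, and in 3512 cells with none, which fell into 388. The largest family, TRBV15 with TRBJ1-1, held 11 of the 90 effector-rule cells (12.2%, 6.26% to 20.8%) and 797 of the 3512 cells with none (22.7%, 21.3% to 24.1%). The second largest, TRBV12-2 or TRBV13-2 with TRBJ2-3, held 2 of 90 (2.22%, 0.270% to 7.80%) and 576 of 3512 (16.4%). Both dominant families thus took a smaller share of effector-rule cells than of cells with none, although the first share rests on 11 cells. In cells with 1 rule gene the largest family was not rarer, with 74 of 277 (26.7%, 21.6% to 32.3%). The second largest held 22 of those 277 (7.94%, 5.04% to 11.8%). Deposited clonotypes need matching chains and are other sets of cells. The largest of them held 3.88% of the 103 effector-rule cells with a clonotype, and its share of cells with none is not given. TRBV17 with TRBJ1-1 held 8 of 90 (8.89%, 3.92% to 16.8%) and 178 of 3512 (5.07%).

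Effector-rule cells were more frequent in small families. They made up 14 of 279 cells (5.02%) in families seen in 1 cell, 8.47% in families of 2 and 7.09% in families of 3 to 9 cells. The share was 1.93% in families of 10 to 29 cells, 1.13% in families of 30 to 99 and 1.52% in families of at least 100. Split at 30 cells, 49 of 1014 cells of smaller families (4.83%, 3.60% to 6.34%) and 41 of 2865 cells of larger families (1.43%, 1.03% to 1.94%) met the rule. Cells with 1 rule gene did not show this excess, at 6.61% of cells in the smaller families and 7.33% in the larger ones. Cells of the smaller families were not deeper, with a median of 1868.5 UMIs against 2137. After thinning the shares were 2.94% and 0.539%. Families built on the TCR alpha chain gave 4.36% below 30 cells and 1.46% from 30 cells on. The size classes were drawn after the values had been seen.

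**Figure D4:**
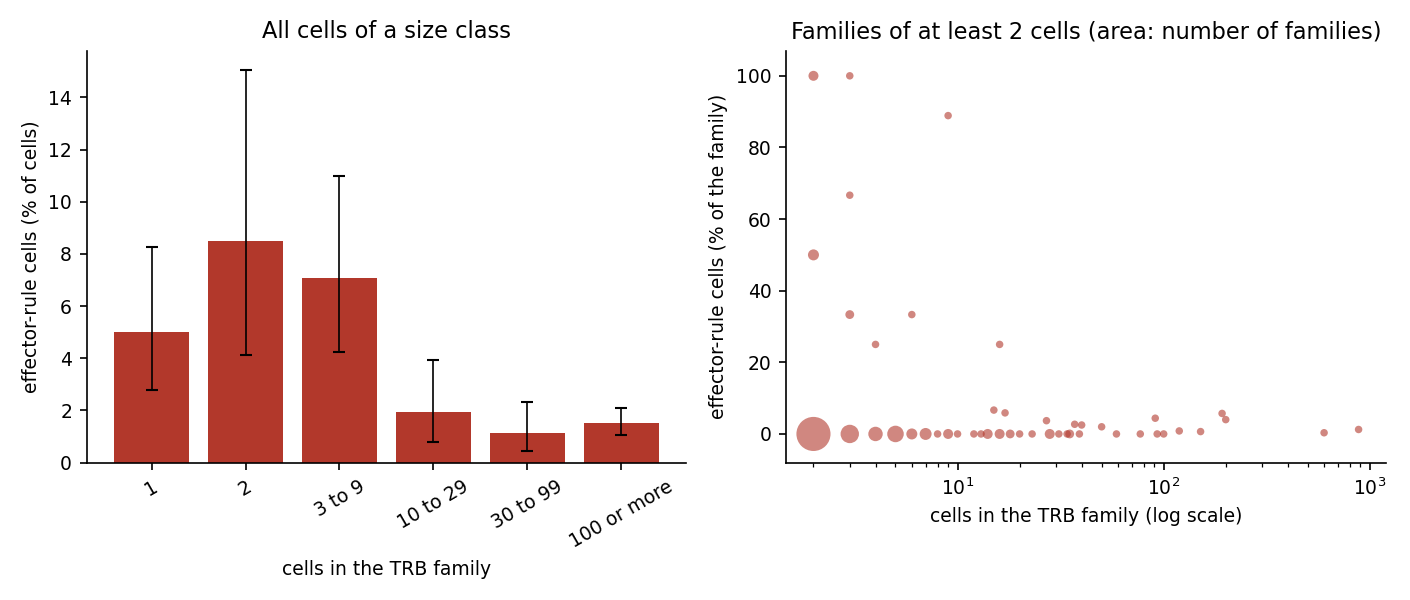
Left, share of effector-rule cells (percent of cells, axis from 0) among cells with exactly 1 TRB, by the number of cells in the family, with exact Clopper-Pearson 95% intervals. Right, the share in each family of at least 2 cells against its size (log scale), with the area of a point set by the number of families at that place. Shares are 5.02% to 8.47% in the 3 smallest classes and 1.13% to 1.93% in the 3 largest, and the families with a majority of effector-rule cells have at most 9 cells.

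Most effector-rule cells of small families lay in a few of them or in families seen once. Of 132 families of 2 to 29 cells, 114 held no effector-rule cell, while 10 held at least as many effector-rule cells as other cells. These 10 together had 29 cells, of which 23 met the rule and 2 more had 1 rule gene. The clearest was TRBV5 with TRBJ2-5, where 8 of 9 cells met the rule (88.9%, 51.8% to 99.7%) and the ninth had 1 rule gene. All 8 of its cells with a readable alpha chain carried the same one, TRAV12-3 with TRAJ48. Its 8 effector-rule cells had 13691 CPM of Ccl5 and 2068 CPM of Id2, with Klf2 at 224 CPM from 4 UMIs. TRBV31 with TRBJ1-2 had 3 of 3 cells in the rule. Of the 19 families of at least 30 cells, 9 held no effector-rule cell, and the highest share was 5.73% (2.89% to 10.0%) in TRBV29 with TRBJ1-1. Cells of 1 family share a founder and are not independent of one another.

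Effector-rule cells of small and large families also differed in their transcripts. The 49 cells of families under 30 cells had 15552 CPM of Ccl5 and the 41 cells of larger families had 10156 CPM, a ratio of 1.53 (1.43 to 1.64). Id2 stood at 1366 CPM and 469.7 CPM (2.91-fold, 2.15 to 3.97) and Cd7 at 1039 CPM and 277 CPM (3.75-fold, 2.57 to 5.59). Klrd1 had 19 UMIs in the smaller families and 1 UMI in the larger ones, or 159 CPM against 7.70 CPM (20.7-fold, 3.29 to 859). Ccrl2 was 6.53-fold (1.91 to 34.6) and Pdcd1 1.69-fold (1.34 to 2.14) higher in those of small families. Klf2 was lower, at 528 CPM in small and 1602 CPM in large families (0.330-fold, 0.245 to 0.439), and so was Prf1 (0.617-fold, 0.429 to 0.879). Lag3 (0.912-fold, 0.679 to 1.22) and Tox (1.04-fold, 0.753 to 1.42) did not differ beyond counting error. These values lean on single families: the 8 TRBV17 cells held 811 of the 1319 Ccl5 UMIs of the larger families, and without them the Ccl5 ratio was 2.66 (2.41 to 2.94) and those of Prf1 and Lag3 were 0.758 (0.502 to 1.15) and 1.56 (1.07 to 2.32), so neither the lower Prf1 nor the near equal Lag3 was kept. Among the smaller families, 1 cell of a TRBV12-2 family with TRBJ1-1 gave 291 of the 1856 Ccl5 UMIs. A TRBV1 family with TRBJ1-2 gave another 285, and leaving both out together was not tested. Without the 4 cells of the TRBV12-2 or TRBV13-2 family with TRBJ2-5, the Ccrl2 ratio was 18.1 (2.86 to 754). The TRBV15 and TRBV29 families held 66 and 82 of the 208 Klf2 UMIs of the larger families. With each family left out in turn, the ratio ran from 1.30 to 2.66 for Ccl5 and from 2.51 to 3.23 for Id2. It ran from 3.23 to 4.55 for Cd7 and from 0.237 to 0.416 for Klf2. At least 3 rule genes were present in 51.0% of those of small families (36.3% to 65.6%) and 24.4% of those of large families (12.4% to 40.3%). Cells with none showed the Klrd1 gap too, at 10.99 CPM (6.71 to 17.0) in small and 1.16 CPM (0.468 to 2.40) in large families. They did not show the gaps in Id2, Cd7 and Klf2, since they had 74.2 CPM of Id2 in small and 119 CPM in large families, 140.2 and 340.4 CPM of Cd7, and 2615 and 2737 CPM of Klf2.

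**Figure D5:**
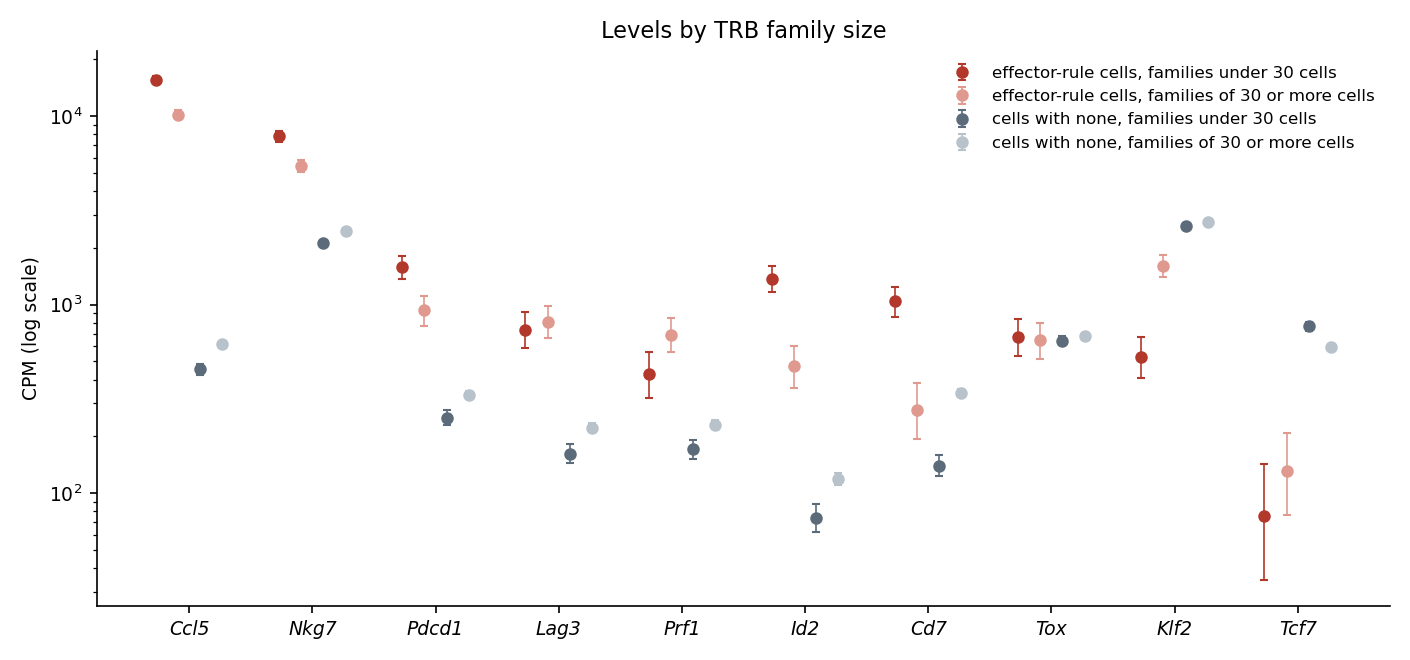
Summed level (CPM, log scale) of 10 genes in effector-rule cells of TRB families under 30 cells and of at least 30 cells (red and light red), and in cells with none of the same family classes (dark and light grey), with exact Poisson 95% intervals. Id2 and Cd7 are higher and Klf2 is lower in effector-rule cells of small families than in those of large families, while Tox is alike in all 4 groups.

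Within single families the shift held for some genes and not for others. In the largest family, Ccl5 stood at 8274 CPM in 11 effector-rule cells and 721 CPM in 797 cells with none, and Tcf7 at 65.7 CPM (2 UMIs) and 392 CPM. Klf2 did not differ there, at 2167 CPM (1676 to 2757) in effector-rule cells and 2203 CPM in cells with none. The TRBV29 family with TRBJ1-1 showed the same, with Klf2 at 2682 CPM and 2662 CPM, Ccl5 at 4415 CPM and 1722 CPM, and Tcf7 at 65.4 CPM and 552 CPM in effector-rule cells and cells with none. In the TRBV17 family with TRBJ1-1, by contrast, Klf2 stood at 326 CPM (178 to 547) in 8 effector-rule cells and 2402 CPM in cells with none, and Ccl5 at 18882 CPM and 1461 CPM. Klf2 was also lower in the TRBV12-2 or TRBV13-2 family with TRBJ2-5, at 203 CPM (24.5 to 732) in 4 effector-rule cells and 3139 CPM in cells with none, and in the TRBV12-1 family with TRBJ2-5, at 101 CPM (2.56 to 564) in 4 effector-rule cells and 2814 CPM in cells with none. In the TRBV12-2 or TRBV13-2 family with TRBJ2-5, Ccl5 did not differ, at 2533 CPM (1640 to 3740) in 4 effector-rule cells and 2791 CPM in cells with none. Pdcd1 stood at 1313 CPM in effector-rule cells and 474 CPM in cells with none of the largest family, and at 861 CPM and 159 CPM in the TRBV17 family. In the TRBV29 family, 752 CPM (477 to 1129) in effector-rule cells and 479 CPM (408 to 558) in cells with none overlapped. Klf2 was thus lower in 3 of these 5 families, and not in the 2 that hold 11 effector-rule cells each.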

How the data were processed

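1 single-cell RNA library and 1 TCR library were analysed, both from spleen CD8+Thy1.1+ GD2TIF cells sorted together and captured on a Singleron microwell chip, per the labels' protocols. The authors deposited whole-number UMI counts per gene and barcode, without normalization. Build GRCm38 and the tools STAR 2.6.1a, featureCounts 2.0.1 and cutadapt 1.17 are named, without roles or order, per the submitters' processing notes. Not given in the sources used here are the V(D)J assembler and how reads were divided between related genes (Ccl3 and Ccl4, Cd200r1 and Cd200r4, class I genes). The authors also deposited the TCR contigs and clonotypes with their UMI counts, and the TRB chromosome was looked up in a RefSeq gene table (GRCm38.p6).

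Of 10387 barcodes, 49 with fewer than 200 genes or with 20% or more mitochondrial UMIs were left out. UMIs were summed over effector-rule cells and over cells with none, divided by the group total and given as CPM. Genes with at least 200 UMIs over both groups were compared, a gene was called past 2-fold, and a gene without a UMI in 1 group was set at 3 counts over the group. The text names the 20 highest and 12 lowest folds among called genes, leaving out the rule genes, receptor, immunoglobulin, mitochondrial and haemoglobin genes and genes with over 20% of their UMIs in 1 cell of the higher group. Lists, markers and members were chosen with earlier results of these data known. The split of families at 30 cells, and the ranking of lower genes by the upper end of their interval, were chosen after the values had been seen. Cd244a was matched by gene ID, and a few genes of the lists are counted but not reported here by name. No doublet caller was run, and barcodes with 2 TRB chains were left out as an alternative. Alternatives changed the rule, the depth, the scaling, the UMI minimum, the comparison cells and the families. Only the ratio of summed counts was tested on simulated counts, which had no cells, families, rule or thinning. The steps were run with scipy 1.17.1, pandas 2.3.3, numpy 2.4.6 and matplotlib 3.10.9 in python 3.11.15.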

Additional observations from a re-analysis of the deposited data

How the results depend on the processing

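The number of effector-rule cells was 97 with at least 3 rule genes, 118 with the rule applied to cells thinned to 1000 UMIs and 130 without Cxcr6 in the rule. Genes past 2-fold higher numbered 491 and past 2-fold lower 965 with at least 3 rule genes. They numbered 98 and 215 with a minimum of 500 UMIs, and 448 and 787 with a minimum of 100. Without Cxcr6 in the rule, 770 were lower. The genes compared changed with the UMI minimum and with the cells used, so these counts are not shares of 1 set of genes. A sum over 97 cells also lets more genes pass 2-fold by counting error, and the size of that part was not tested. Within the largest TRB family alone, 73 were higher and 233 lower, and with the families of at least 10 effector-rule cells weighted equally, 39 and 182, where fewer cells entered each sum. The largest family held 5.71% of cells with at least 3 rule genes and exactly 1 TRB. That share rests on few cells, since 25 such cells lay in families under 30 cells and 10 in larger ones. The largest deposited clonotype held 3.88% of effector-rule cells with a clonotype. Within the largest family, folds turned round for Chn2 (0.656), Cxxc4 (1.43), and Susd3, Enpp2 and Gsto1 (each 0), and with families weighted equally for Susd3 (0), Enpp2 (0.503) and Cxxc4 (1.14), and within the largest family each of these rests on at most 1 UMI. Leaving out each TRB family, added after the data were seen, moved the Ccl5 ratio of small-family over large-family effector-rule cells between 1.30 and 2.66. Over 18 alternatives, 472 folds of named genes stayed, 96 moved and 8 turned round. Leaving ribosomal, mitochondrial, Gm42418 and Malat1 UMIs out of the totals gave 195 higher and 589 lower genes and shifted log2 folds by -0.09. No paired analysis was possible because each kind of library has 1 sample. With 1 library, no value has a replicate check, mice cannot be told apart, and genes with few UMIs in effector-rule cells are known only within wide intervals.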
